A study of Mus musculus with 6 samples.

Results

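Indian hedgehog and parathyroid hormone-related protein (PTHrP) signalling was followed in mouse articular cartilage through 9 genes, taken by name from the 33971 genes measured. They were the ligands Ihh and Pthlh, the receptors Pth1r, Ptch1 and Smo, the transcription factors Gli1, Gli2 and Gli3, and the inhibitor Hhip. All 9 passed the filter on low counts that left 20397 genes for testing. The comparison was between 3 libraries from wildtype mice aged 2 months and 3 from wildtype mice aged 18 months, sequenced as polyadenylated RNA, and it asked which genes differ between young and aged cartilage. The study's methods describe male mice, and state in general that experiments used independent samples. The labels give no sex, no animal numbers and no pooling, so p-values measure the spread between these libraries, part of which may be technical.

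Indian hedgehog is a secreted protein made by chondrocytes that are about to enlarge. It binds Patched 1 (Ptch1), which frees Smoothened (Smo) to signal from the primary cilium to the Gli transcription factors. In the growth plate Ihh raises production of PTHrP, the product of Pthlh, near the joint surface, and PTHrP acts on its receptor Pth1r to hold chondrocytes back from hypertrophy, so that the pair forms a feedback loop. Ptch1, Gli1 and Hhip are themselves switched on by Hedgehog signals and are commonly used as a readout of the pathway.

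The libraries held 48171507 to 59085179 counts. Genes that mark chondrocytes were present at 2 months, where 16 of them made up 3.85 to 6.48% of the counts, and were scarce at 18 months, at 0.0661 to 0.154%. All 16 were called lower at 18 months, and Matn1 and Matn3, which encode cartilage matrix proteins, stood at 0 in 18-month replicate 3. Neutrophil markers held 0.000629 to 0.334% of the counts at 2 months and 3.77 to 4.10% at 18 months. Erythroid markers held 0.0148 to 0.407% and 1.69 to 2.27%, respectively. At 2 months, replicate 2 stood apart from the other two of its age, with the highest neutrophil share and 545386 counts of the bone collagen gene Col1a1 against 10559 and 22118. Counts of Xist, the RNA that coats a silenced X, lay at 88239 to 102417 at 2 months and at 11 to 30 at 18 months. Ddx3y, on the Y chromosome, had 0 to 10 counts at 2 months and 4333 to 4839 at 18 months, so the 2-month libraries go against the described male sex. Age and this sex pattern cannot be told apart, and the same holds for age and the marker shares.

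Every one of the 9 genes fell with age. The median log2 fold change of 18-month against 2-month cartilage was -4.25, beside -0.02 over all genes tested, and the smallest decrease among the 9 was that of Gli3, at -3.36. Calls required an adjusted p (Benjamini-Hochberg) under 0.05 and a log2 fold change beyond 1 in either direction. All 9 genes were called lower, where 21.3% of all tested genes were. In all 9, every 18-month library lay below every 2-month library, which held for 34.6% of all tested genes. A total of 1219 genes, 5.98% of those tested, had a log2 fold change below that of Gli3. In whole tissue, fewer cells that express a gene and less RNA of it per cell cannot be told apart. The plot of FPKM by library shows the values of each gene.

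**Figure D1:**
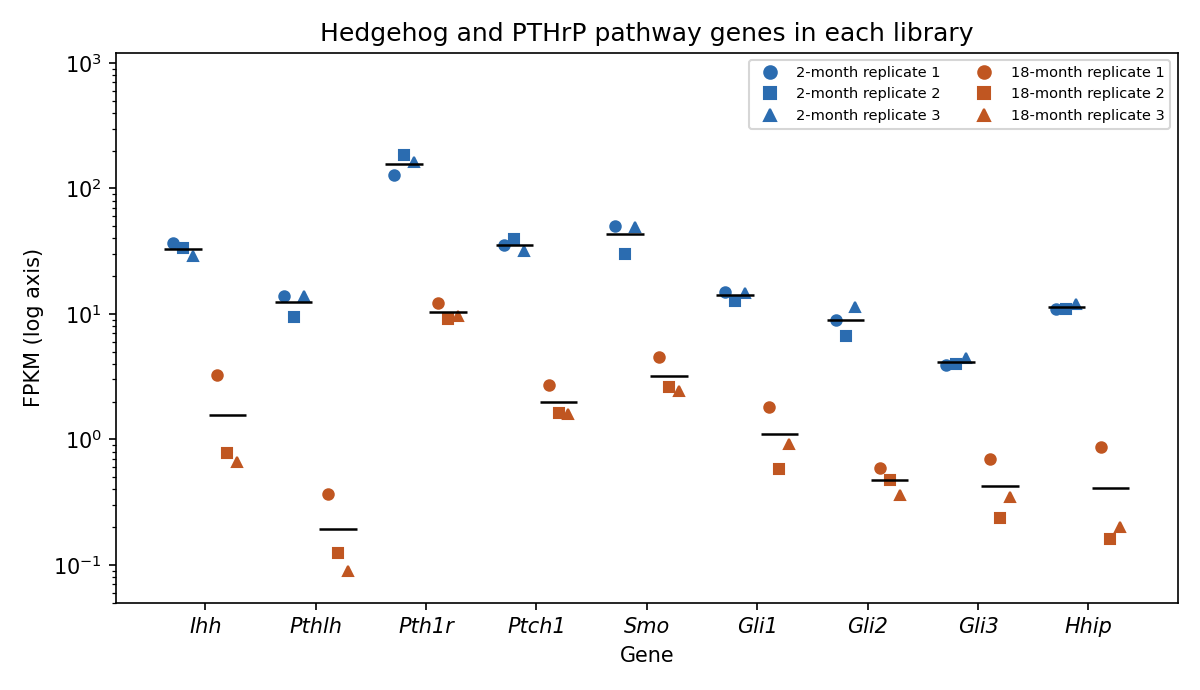
FPKM (fragments per kilobase of transcript, scaled to library size, log axis) of the 9 genes in each of the 6 libraries, with 2-month libraries in blue, 18-month libraries in orange, a marker shape for each replicate and a black line at the mean of 3. For each gene the 18-month points lie below all 2-month points, and 18-month replicate 1 is the highest of its age.

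Among the ligands, Ihh (ENSMUSG00000006538, GRCm38 chr1:74945315-74951672, minus strand) was counted 6109, 5960 and 4926 times in replicates 1 to 3 of the 2-month group and 666, 149 and 129 times in those of the 18-month group. The 18-month libraries did not reach the 2-month range, and replicate 1 stood well above the other two. As FPKM, a level per transcript length and library size, Ihh went from 32.9 ± 3.87 (SD, n = 3) to 1.56 ± 1.46 (SD, n = 3). Its log2 fold change was -4.49 ± 0.71 (SE), a 22.5-fold decrease with a 95% interval from 6.69 to 75.6 (edgeR, adjusted p = 0.0046). Leaving out 18-month replicate 1 took the log2 fold change of Ihh to -5.57 (edgeR, adjusted p = 0.0016).

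Pthlh (ENSMUSG00000048776, chr6:147252101-147264183, minus strand), which encodes PTHrP, had the largest decrease of the 9. It had 1241, 896 and 1271 counts at 2 months and 40, 13 and 10 at 18 months. The aged libraries were thus counted on few reads, all above the 3 counts taken here as the floor. Its FPKM went from 12.5 ± 2.61 (SD, n = 3) to 0.193 ± 0.150 (SD, n = 3), with a log2 fold change of -6.07 ± 0.62 (SE; edgeR, adjusted p = 0.0016). The decrease was 67.2-fold, with a 95% interval from 23.4 to 193 that did not reach those of Pth1r and Gli3 and overlapped the other 6. Leaving out 18-month replicate 1 gave a log2 fold change of -6.84 (edgeR, adjusted p = 0.0017).

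Of the receptors, Pth1r (ENSMUSG00000032492, chr9:110722085-110747145, minus strand) couples PTHrP and parathyroid hormone to G proteins. It had the highest FPKM of the 9 genes at both ages, and 20573, 31380 and 26551 counts at 2 months and 2399, 1682 and 1782 at 18 months. Its 18-month libraries were close together, and the SE of its log2 fold change, 0.19, was the smallest of the 9. Pth1r FPKM went from 157.7 ± 27.9 to 10.3 ± 1.66 (SD, n = 3 each), and the decrease was 16.1-fold with a 95% interval from 11.7 to 22.3 (edgeR, adjusted p = 0.00071). Myl3, a myosin light chain gene on the opposite strand, shares 5285 bases with Pth1r. It had 664 to 790 counts at 2 months and 23 to 58 at 18 months.

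Ptch1 (ENSMUSG00000021466, chr13:63508328-63573460, minus strand), the Hedgehog receptor, had 27442, 32892 and 25358 counts at 2 months and 2607, 1441 and 1440 at 18 months. Replicates 2 and 3 of the aged group were almost equal. The log2 fold change of Ptch1 was -4.25 ± 0.26 (SE; edgeR, adjusted p = 0.00075), and FPKM went from 35.6 ± 3.91 to 1.98 ± 0.653 (SD, n = 3 each).

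Smo (ENSMUSG00000001761, chr6:29735503-29761365, plus strand), the membrane protein that Ptch1 restrains, had 15571, 9894 and 15518 counts at 2 months and 1713, 930 and 864 at 18 months. Here 2-month replicate 2 was the lowest of its age. The log2 fold change of Smo was -3.86 ± 0.37 (SE; edgeR, adjusted p = 0.0014), and FPKM went from 43.2 ± 11.4 to 3.19 ± 1.17 (SD, n = 3 each).

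The 3 Gli factors had log2 fold changes from -4.33 to -3.36. Gli1 (ENSMUSG00000025407, chr10:127329882-127341974, minus strand), an activator and a direct Hedgehog target, had 4121, 3720 and 4093 counts at 2 months and 606, 184 and 294 at 18 months. Its log2 fold change was -3.77 ± 0.44 (SE; edgeR, adjusted p = 0.0021). Arhgap9, on the opposite strand, shares 62 bases with Gli1 and had 66 to 1204 counts at 2 months and 8101 to 8817 at 18 months. The library preparation kept strand information, but whether the counting used it is not given in the sources used here, so reads from that short overlap could have been assigned to either gene.

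Gli2 (ENSMUSG00000048402, chr1:118834132-119053619, minus strand), the main activator among the Gli proteins, had 3372, 2700 and 4356 counts at 2 months and 275, 206 and 157 at 18 months. Its log2 fold change was -4.33 ± 0.32 (SE; edgeR, adjusted p = 0.00092). Gli3 (ENSMUSG00000021318, chr13:15463235-15730026, plus strand), which acts mostly as a repressor when no Hedgehog ligand is bound, had 2052, 2240 and 2399 counts at 2 months and 446, 145 and 215 at 18 months. With a log2 fold change of -3.36 ± 0.41 (SE; edgeR, adjusted p = 0.0023), Gli3 fell the least of the 9, and its interval from -4.36 to -2.35 overlapped those of Gli1 and Gli2.

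Hhip (ENSMUSG00000064325, chr8:79965851-80058006, minus strand) encodes a cell-surface protein that binds Hedgehog ligands and limits their reach. Its 2-month libraries agreed most closely, with 5457, 5821 and 6091 counts, and its 18-month libraries varied most, with 532, 92 and 117. The coefficient of variation of Hhip FPKM was 5.13% at 2 months and 97.3% at 18 months. Its log2 fold change was -4.88 ± 0.75 (SE; edgeR, adjusted p = 0.0042), and -6.01 without 18-month replicate 1 (edgeR, adjusted p = 0.0016).

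**Figure D2:**
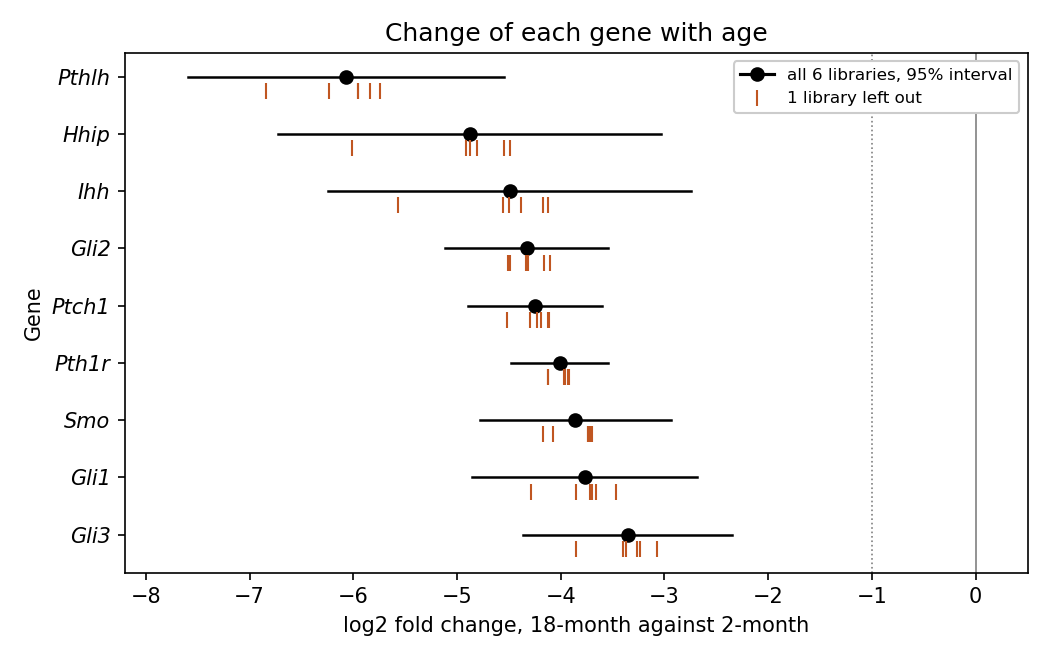
Log2 fold change of 18-month against 2-month cartilage for each of the 9 genes, with black points and 95% intervals from all 6 libraries and orange ticks from fits that left out 1 library each. The dotted line marks a log2 fold change of -1, and all points, intervals and ticks lie to the left of it; the tick farthest left belongs to the fit without 18-month replicate 1 in Pthlh, Hhip and Ihh.

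The aged libraries were not alike. Replicate 1 was the highest of its age for all 9 genes, from 1.31 times the mean of replicates 2 and 3 for Pth1r to 4.83 times for Hhip. The same library had 8.66 times as much Acan and 5.65 times as much Sox9 as the mean of the other two, and 1.65 times as much Col2a1, and the part of chondrocyte RNA in these differences was not tested. Leaving it out together with 2-month replicate 2, a choice made after seeing the data, kept 9 of 9 genes called lower, with log2 fold changes from -7.03 for Pthlh to -3.90 for Gli3.

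In order of FPKM, 2-month cartilage had Pth1r first, at 128 to 183, with no overlap with the next gene. Smo, Ptch1 and Ihh followed at 28.8 to 50.4 and overlapped each other. Gli1, Pthlh, Hhip and Gli2 came next at 6.72 to 15.0, each overlapping its neighbour, and Gli3 was lowest at 3.89 to 4.45. At 18 months Pth1r was again first, at 9.13 to 12.2, and the other 8 formed a run in which each gene overlapped the next, from Smo at 2.41 to 4.53 to Pthlh at 0.0895 to 0.365. Pthlh thus moved from the sixth to the ninth place, although its neighbours in either order did not differ beyond their spread.

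Ratios within a library show whether pairs of these genes fell together, since library size cancels. Ratios of FPKM were taken for 6 pairs, with 0.01 added to each value, and tested with a two-sided exact permutation test, which cannot give less than 0.1 with 3 libraries against 3. Pthlh relative to its receptor Pth1r was 0.109, 0.0516 and 0.0865 at 2 months and 0.0307, 0.0148 and 0.0104 at 18 months. The ratio was lower in every aged library and fell by 2.23 on the log2 scale (exact permutation p = 0.1, 0.3 after Benjamini-Hochberg adjustment over the 6 pairs). The ratio of Gli1 to Gli3 was 3.85, 3.18 and 3.27 at 2 months and 2.58, 2.38 and 2.59 at 18 months, also without overlap, a difference of -0.44 on the log2 scale (exact permutation p = 0.1, adjusted 0.3).

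The other 4 ratios overlapped between the ages. Ihh relative to its receptor Ptch1 was 0.843 to 1.04 at 2 months and 0.419 to 1.19 at 18 months (exact permutation p = 0.4, adjusted 0.4). The log2 differences were -0.57 for Ihh to Ptch1, -0.83 for Gli2 to Gli3, 0.39 for Gli1 to Ptch1 and 0.43 for Smo to Ptch1. With 3 libraries per age the test cannot pass 0.05 for a difference of any size.

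**Figure D3:**
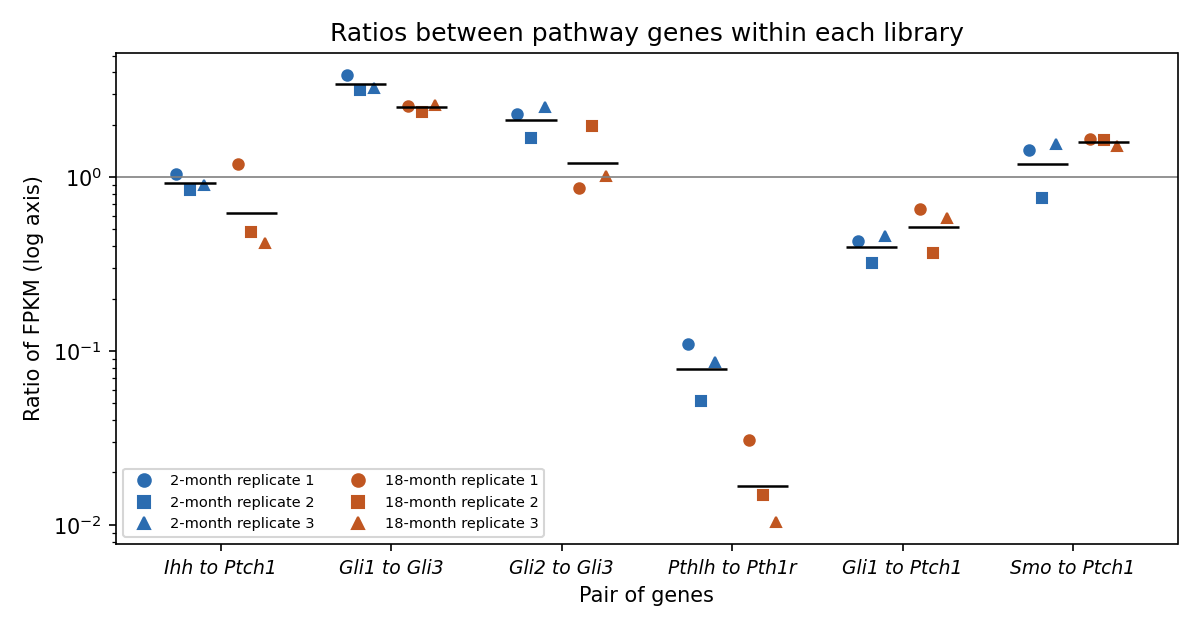
Ratio of FPKM of 6 pairs of pathway genes in each library (log axis), with 2-month libraries in blue, 18-month libraries in orange and a black line at the geometric mean of 3. The ages do not overlap for Pthlh to Pth1r, at 0.0516 to 0.109 against 0.0104 to 0.0307, nor for Gli1 to Gli3.

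Since chondrocyte markers fell as well, each gene was also expressed relative to them, as the log2 of its count (plus 0.5) minus the mean log2 count of the 16 markers. Against this reference all 9 genes were higher at 18 months, by 0.91 for Pthlh to 3.67 for Gli3, with a median of 2.87. In all 9, every 18-month library lay above every 2-month library, which held for 96.4% of all tested genes on this scale, and each exact permutation test (two-sided) gave p = 0.1, the smallest it can give. The markers themselves had dropped by 7.08 relative to the library totals, so that the median of all tested genes was 7.16 higher on the same scale. The 9 genes thus fell less than the mean of the marker list and more than most genes. Single markers varied widely, with log2 fold changes from -12.98 to -1.001 and a median of -6.34. At 18 months Matn1 had 13, 5 and 0 counts and Matn3 had 7, 4 and 0, so the mean rests in part on the added 0.5. Some markers fell less than Pthlh, at -6.07, among them Acan at -5.91 and Sox9 at -5.16.

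The result depended on which markers served as reference. Relative to the chondrocyte transcription factor genes Sox9, Sox5 and Sox6, 8 of the 9 genes were lower at 18 months and 1 was higher. Pthlh at -2.53, Hhip at -1.57, Ihh at -1.15 and Ptch1 at -0.57 did not overlap between the ages (exact permutation p = 0.1 each). Every 18-month library lay below every 2-month library for 2.39% of all tested genes on this scale, whose median was 3.72 higher at 18 months. Gli2, Pth1r, Gli1, Smo and Gli3 overlapped, at differences from -0.60 to 0.23. Sox6, which is also expressed in erythroid cells, had a log2 fold change of -1.001, against -5.16 for Sox9 and -4.05 for Sox5. With Sox9 and Sox5 alone, a reference added after seeing the data, 7 genes were higher, by 0.21 for Ihh to 1.59 for Gli3, while Hhip was at -0.21 and Pthlh at -1.17. A change of reference shifts all 9 genes by the same amount, so that their order is the same in each.

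**Figure D4:**
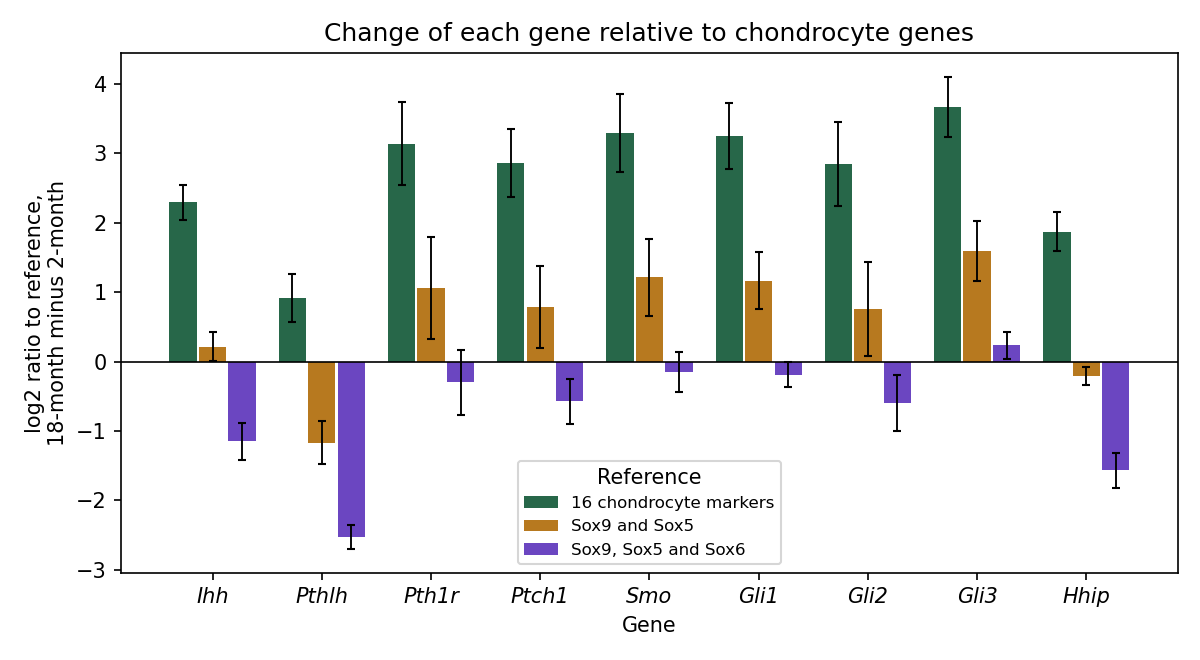
Difference between the ages (18-month minus 2-month, log2) in the ratio of each gene to 3 sets of chondrocyte reference genes, with bars for the difference of the means and error bars for its SE over 3 libraries per age. Bars are all above 0 with 16 markers as reference and mostly below 0 with Sox9, Sox5 and Sox6, and the order of the genes is the same in each set because a change of reference shifts all by 1 amount.

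Among 13900 tested genes whose FPKM averaged 1 or more, the genes closest in pattern to 4 of the 9 were found by the root mean square difference of log2 CPM, counts scaled to library size (plus 0.1), over the 6 libraries, each gene centred on its mean. Nearest to Pth1r were Alpl, tissue-nonspecific alkaline phosphatase, at 0.104, Sparc, osteonectin, at 0.116, and Spats2l at 0.140. Nearest to Pthlh were Gpld1 at 0.105, the proprotein convertase gene Pcsk6 at 0.164 and the fibulin gene Fbln7 at 0.171. For Ihh they were Pdzrn4 at 0.157, the cadherin gene Cdh19 at 0.161 and Adamtsl2 at 0.184. For Gli1 they were the receptor phosphatase gene Ptprf at 0.102, Gramd2 at 0.166 and the collagen-binding integrin gene Itga10 at 0.192. Among the 9 genes themselves, Gli1 and Gli3 were the closest pair at 0.235, followed by Pth1r and Ptch1 at 0.238, and Pthlh and Gli3 were farthest apart at 1.23. With 6 libraries in 2 groups, these distances mainly compare the size of the change and the place of 18-month replicate 1.

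The promoters were read to see what sequence the 9 genes share, since they moved together. RefSeq starts on GRCm38.p6 were found for 8 of the 9 genes, with 10 promoters in all. None was found for Gli1, so its promoter was not searched. The 250 bases before each start were searched on both strands. The windows of Ihh, Pth1r and Hhip are shown because they were the 3 of the 10 windows with a cAMP response half-site, a choice made after the search, and all 3 lie outside the annotated gene. The other 2 Pth1r promoters held none. Each is written 5′ to 3′ on the strand of its gene, with capitals for a cAMP response half-site (TGACG or its reverse complement CGTCA), a full cAMP response element (TGACGTCA) or a GC box (GGGCGG or its reverse complement CCGCCC).
Ihh, chr1:74951673-74951922, minus strand: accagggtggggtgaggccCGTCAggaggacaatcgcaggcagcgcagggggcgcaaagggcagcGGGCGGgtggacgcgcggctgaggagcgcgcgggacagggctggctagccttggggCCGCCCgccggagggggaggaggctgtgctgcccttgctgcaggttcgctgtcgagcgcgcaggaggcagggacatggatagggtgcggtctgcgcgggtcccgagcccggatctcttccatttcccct
Pth1r, chr9:110747146-110747395, minus strand: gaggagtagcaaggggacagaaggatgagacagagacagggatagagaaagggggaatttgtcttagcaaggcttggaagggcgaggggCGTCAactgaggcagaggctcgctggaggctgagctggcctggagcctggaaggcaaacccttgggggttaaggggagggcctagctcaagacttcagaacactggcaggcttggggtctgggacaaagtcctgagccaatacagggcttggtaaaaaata
Hhip, chr8:80058009-80058258, minus strand: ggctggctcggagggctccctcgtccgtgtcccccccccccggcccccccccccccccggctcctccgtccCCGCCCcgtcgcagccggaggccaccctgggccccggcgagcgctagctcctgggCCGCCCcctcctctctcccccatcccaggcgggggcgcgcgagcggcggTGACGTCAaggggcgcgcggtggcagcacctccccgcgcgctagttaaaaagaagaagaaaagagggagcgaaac

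The Gli binding sequence GACCACCCA was in 0 of the 10 promoters and in 0.225% of 32851 mouse promoters of the same length, and its core CCACCCA, which lies within it, was in 0 of 10 and in 8.11%. These letters were therefore absent from windows of this length. The half-site TGACG was in 3 of 10, those of Ihh, Pth1r and Hhip shown above, against 17.8% of all promoters. In Hhip its 2 matches, on opposite strands, overlap in the full element TGACGTCA, which starts 75 bases before the RefSeq start and was found in 1.55% of all promoters. GC boxes were in 8 of 10 promoters, which belonged to 7 genes, against 32.7% of all promoters. Pth1r has 3 of the 10 windows, so the windows are not 10 separate genes. The GC content of the 10 windows was 56 to 78.4%, beside a median of 52.4% over all promoters. The half-site, the full element and the GC box were chosen after values had been seen, and a match describes the letters and not a bound site.

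Other genes of the 2 pathways were taken from 7 lists by role, with 87 genes of which 83 were tested. Of these 83, 51 were called lower, against a background of 21.3%, and 5 were called higher, where 14.9% of all tested genes were. The median log2 fold change over the 83 was -1.53, beside -0.02 for all genes. By list, medians ran from -3.91 for ligands and their release to -0.15 for PTHrP signalling, as the plot of log2 fold changes by role shows.

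For ligands and their release, 5 of 5 tested genes were called lower, with a median of -3.91. Scube1, Scube2 and Scube3, which encode secreted proteins that carry lipid-modified Hedgehog away from the cell, had log2 fold changes of -4.44, -4.33 and -3.91. Hhat, the enzyme that adds palmitate to the ligand, was at -2.58. The remaining ligands were barely detected, with 0 counts of Shh in each 2-month library and 21, 0 and 8 in the 18-month libraries, and 0 to 13 counts of Dhh in any library, so that Ihh was the Hedgehog ligand measured in quantity.

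Among receptors and co-receptors, 5 of 6 were called lower, with a median of -3.22. The co-receptor genes Boc and Cdon had log2 fold changes of -3.93 and -3.69. Gas1, a membrane-anchored co-receptor, was at -2.74, but lost its call in 4 of the 6 fits that left out 1 library (edgeR, adjusted p from 0.059 to 0.075). Lrp2, a large endocytic receptor, had 13, 25 and 24 counts at 2 months and 0 in each 18-month library, and so was at least 23.7-fold lower when compared with 3 counts over the whole aged group.

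In the list for signal transduction between Smo and the Gli proteins, 7 of 16 genes were called lower and 2 higher. Of all tested genes, 21.3% were called lower and 14.9% higher. The median of the 16 was -0.57, and 7 of them were not called. The ciliary kinesin gene Kif7, Evc2, Stk36 and Evc had log2 fold changes of -3.22, -2.93, -2.90 and -2.56. Arrb2 and Grk2, a beta-arrestin and a receptor kinase that act on many G protein-coupled receptors, were called higher, at 4.17 and 2.05. Arrb2 had 251, 2400 and 489 counts at 2 months and 18916, 21879 and 22868 at 18 months, and its highest 2-month value was in the library with the most neutrophil markers. Without that library its log2 fold change was 5.53 (edgeR, adjusted p = 0.0002). In the neutrophil list, the 8 genes had log2 fold changes from 4.65 to 5.40, beside a median of -0.02 over all genes tested. With edgeR 0 of them were called and 1 had an unadjusted p under 0.05, while DESeq2 called 7, limma 8, and edgeR without 2-month replicate 2 also 8. The part of those cells in the increases of Arrb2 and Grk2 was not tested.

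Of 12 genes for the primary cilium, 7 were called lower and 1 higher, beside 21.3% and 14.9% of all tested genes. The median of the 12 was -1.50. Wdr35, Dync2h1, Ift88 and Ift172, which serve transport within the cilium, had log2 fold changes of -3.09, -2.74, -2.35 and -2.08, while Ift140, of the same transport system, was at 1.66. Of 10 other genes that respond to Hedgehog, 7 were called lower and 1 higher, with a median of -1.85. Nkx3-2, a transcriptional repressor of early cartilage, had 400, 802 and 596 counts at 2 months and 61, 0 and 4 at 18 months. Its log2 fold change was -5.10, and it lost its call without 2-month replicate 3 or 18-month replicate 3 (edgeR, adjusted p = 0.075 and 0.1), while it was at -8.33 without 18-month replicate 1. Igfbp6 was at -2.44 and lost its call in 3 such fits, Bcl2 was at -1.99 and the cyclin gene Ccnd2 at -1.97. The proto-oncogene Mycn was at 1.87 and lost its call without 18-month replicate 2 (edgeR, adjusted p = 0.054). Without 2-month replicate 3, 4 of the 10 were called lower.

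Of 18 tested genes downstream of Pth1r, 5 were called lower and 1 higher, beside 21.3% and 14.9% of all tested genes. The number called lower was thus little above that background, and the median of the 18 was -0.15. Zfp521, a zinc finger gene of chondrocytes regulated by PTHrP, was at -2.32, the transcription factor genes Mef2c and Mef2d at -1.76 and -1.11, and the G protein gene Gna11 at -1.50. Arrb1, a second beta-arrestin gene, was called higher at 1.12. Gnas, which encodes the stimulatory G protein that Pth1r acts through, was at -1.05, close to the limit of -1. It was not called in 6 other fits, at -0.92 to -0.996, among them those with other size factors, DESeq2, limma, and edgeR without 2-month replicate 1 or 3. Pth2r, a related receptor, had 0 to 3 counts in each library.

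The prehypertrophic and hypertrophic zone is where Ihh is made and where cells go on to mineralise their matrix. Of 16 genes typical of it, 15 were called lower, with a median of -3.06. No zone was sampled apart, and some of the 16, such as Sp7 and Ibsp, are also osteoblast genes. Spp1, at -1.03, was close to the limit of -1 and was not called in several other fits, among them DESeq2 and limma. Panx3, a channel gene of hypertrophic chondrocytes and osteoblasts, was at -6.53 with 5868, 15237 and 8998 counts at 2 months and 127, 134 and 122 at 18 months. The forkhead gene Foxa2 was at -6.19. Col10a1, the collagen that defines hypertrophic cartilage, was at -5.28 with 399346, 384223 and 364928 counts at 2 months and 29914, 3852 and 3727 at 18 months, and at -6.88 without 18-month replicate 1. Fgfr3, a receptor that slows chondrocyte division, was at -4.75. Phospho1, a phosphatase of mineralisation, was not called, with a log2 fold change of -0.67 (edgeR, adjusted p = 0.32) and its highest count, 2272, in 2-month replicate 2.

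**Figure D5:**
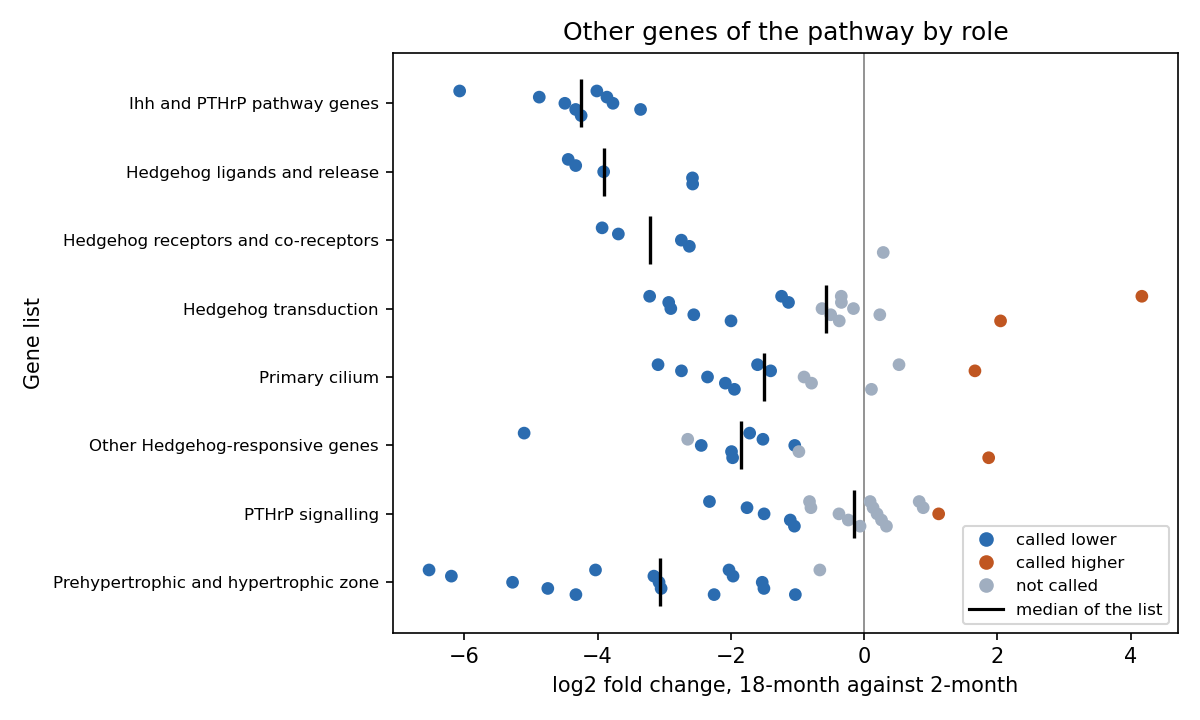
Log2 fold change of 18-month against 2-month cartilage for the 9 genes and for the tested genes of 7 lists by role, with blue for called lower, orange for called higher, grey for not called and a black line at the median of each list. Lrp2, which stood at 0 in the aged libraries, is counted in its list's median but not drawn. Medians run from -4.25 for the 9 genes to -0.15 for PTHrP signalling.

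Leaving out 18-month replicate 1 also moved the fold of other called genes of these lists by over 1.5 times, in each case toward a larger decrease. Scube1 was then at -5.64, Cdon at -4.78, Gas1 at -3.84, Evc2 at -3.55 and Igfbp6 at -3.30.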

How the data were processed

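Articular cartilage RNA was compared between ages with 3 libraries each. For every gene the authors deposited counts as whole numbers, not normalized, and FPKM values scaled by transcript length and library size. The submitters' processing notes name cutadapt 1.9, HISAT2 2.0.4, UMI-tools, StringTie 1.3.4d, DESeq2 and edgeR, with no order or role, and the genome build and the strand setting of the counting are not given in the sources used here. Columns of the authors' own comparisons were not used, and 0 columns of values per library were left out. Of the 33971 genes, 33865 were found by identifier in GENCODE M21 and 30888 had identical coordinates, so positions are on GRCm38. Ptch1 ends at a later base in that annotation, and the other 8 genes match.

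Counts were normalized by TMM and filtered with filterByExpr in edgeR 4.0.16 under R 4.3.3. The quasi-likelihood test was run over all 20397 genes passing the filter, with Benjamini-Hochberg adjustment and no replicate block. The SE of a log2 fold change was its size divided by the square root of F. The floor of 3 counts covers counting error only, and intervals for single genes cover the spread between libraries. Total counts per library limit precision mainly for Pthlh, at 10 to 40 counts in the aged libraries. No pair of libraries differed by as little as counting noise. On simulated data with log2 effects of 2, 3 and 4, edgeR recovered 26 of 58, 54 of 73 and 65 of 69 changed genes. Of the 20397 genes simulated, 6 unchanged ones were falsely called. Those counts were drawn from the dispersion trend that edgeR had fitted, with few genes changed and the direction of each drawn at random. In the data 7401 genes were called and single libraries stood apart, so these rates need not hold there.

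Alternatives used DESeq2 1.42.0, limma 3.58.1 with trend on log2(FPKM + 0.1), log2(FPKM + 1) and log2(TPM + 0.1), other scalings and filters, glmTreat against a fold change of 2, a replicate block and each library left out. A reference of Sox9 and Sox5, and leaving out 2 libraries together, were added after seeing the data. The 9 genes and the lists were chosen with earlier results of these data known. Genes named from each pathway list were the called genes with the largest changes, up to 4 in each direction, and others were named after their values were seen. Sequences are from RefSeq on GRCm38.p6, read with Python 3.11.15, and figures were drawn with matplotlib 3.10.9. The values of 1 listed gene are not reported here.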

Additional observations from a re-analysis of the deposited data

How the results depend on the processing

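All 9 genes were called lower under each of the 10 other processings of all libraries, in each of the 6 fits without 1 library and in the fit without 2, and 0 were called higher. The replicate block gave 9 genes called lower too. Same-numbered libraries of the 2 ages deviated together with correlations of 0.077, 0.080 and -0.070, and differently numbered ones with -0.106 to 0.108. Deviations were taken within each age from 3 libraries, so these values cannot decide whether the numbers pair the samples. The block took the count over all genes from 4354 to 3509 lower and from 3047 to 2523 higher. In the lists it ended the calls of Lrp2, Efcab7 and Nkx3-2 (adjusted p of 0.080, 0.064 and 0.062). Over all genes, the test against a fold change of 2 left 2667 lower and 1366 higher, log2(FPKM + 1) left 2217 lower, and leaving out 2-month replicate 2 together with 18-month replicate 1 gave 4931 higher. Without 1 library, 2095 to 5007 genes were higher and 3499 to 4576 lower, the highest counts without 2-month replicate 2. In limma, rescaling from FPKM to TPM with 0.1 added moved the median of all genes from 0.07 to -0.33, and that of the 9 genes from -3.97 to -4.56. Fits on log2(FPKM + 0.1) and log2(FPKM + 1) gave 50.6% and 57.8% of calls as higher, against 41.2%. In the lists, DESeq2 called 1 ligand gene higher, Shh. Without 1 library, 0 to 1 receptor genes were higher, and of the other responsive genes 0 to 1 were higher and 4 to 7 lower. The cause of these shifts was not tested.

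Ratios to chondrocyte markers turned with the reference. Against Sox9, Sox5 and Sox6 the log2 differences were -1.15 for Ihh, -2.53 for Pthlh, -0.30 for Pth1r, -0.57 for Ptch1, -0.15 for Smo, -0.19 for Gli1, -0.60 for Gli2, 0.23 for Gli3 and -1.57 for Hhip. Against Sox9 and Sox5 they were 0.21, -1.17, 1.06, 0.78, 1.21, 1.17, 0.76, 1.59 and -0.21 in the same order.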
